A study of Mus musculus with 4 samples.

Results

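The 9 genes described here encode matrix metalloproteinases (Mmp2, Mmp3, Mmp9, Mmp10, Mmp13 and Mmp14), the plasminogen activators tPA (Plat) and uPA (Plau), and the uPA receptor (Plaur). They were found by their symbol in the platform annotation, all 9 were on the array, each with 1 probe set, and they are 9 of 19505 named genes. RNA was measured in MC38, a mouse colon adenocarcinoma line, on the Clariom S mouse array, with 1 array for each of 4 samples. The knockout group held 2 clones, clone 1 and clone 2, in which Mgat5 had been targeted with CRISPR-Cas9, and the control group held MOCK, cells with an empty vector, and WT, cells without one. Mgat5 encodes the Golgi enzyme N-acetylglucosaminyltransferase V, which builds the beta-1,6-linked antenna of complex N-glycans. The series compares the expression profile of the knockout cells with that of the controls. Each knockout array is 1 clone and neither control is titled as a clone, so cloning and loss of Mgat5 cannot be told apart. Nothing in the labels says that the arrays of a group came from separate cultures, and p-values measure only the spread between these arrays.

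Matrix metalloproteinases are zinc-dependent endopeptidases that cleave collagens, proteoglycans and other matrix proteins, and they are made as inactive proenzymes. The plasminogen activators are serine proteases that turn plasminogen into plasmin, which degrades fibrin and can activate several proMMPs, and the uPA receptor holds uPA at the cell surface. In many carcinomas these enzymes are known for their part in invasion, and stromal cells and leukocytes often supply a large share of them. TIMPs, the tissue inhibitors of metalloproteinases, block the active enzymes.

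Levels are log2 signals as deposited, so 1 unit is a 2-fold change, and signals of different probe sets are not set against each other. The array carries 5222 negative-control features, whose median lay between 5.12 and 5.22 and whose 75th percentile lay between 6.29 and 6.56 on the 4 arrays. A signal under the 75th percentile of its own array is described as not above background, and a fold against such a group is given as a lower bound with that percentile in its place. The arrays differed in their overall spread, with a 99th percentile over all 22206 probe sets of 15.8 in both clones, 15.9 in MOCK and 14.7 in WT. The median difference over all probe sets, knockout minus control, was 0.18, and it was -0.02 after quantile normalization, which gives all arrays the same distribution. Mgat5 stood at 7.46 in clone 1 and 7.57 in clone 2, against 8.19 in MOCK and 8.27 in WT, and did not pass the test (limma adjusted p = 0.631). None of the 7 colon epithelium markers checked (Epcam, Cdh1, Krt8, Krt18, Krt20, Vil1 and Cdx2) was above background on any array, so these markers did not show the labelled colon epithelial origin. The list averaged 4.27 and 4.32 in clone 1 and clone 2, against 4.22 and 4.29 in MOCK and WT. Of the leukocyte markers 5 were measured and of the endothelial markers 4, and 0 of them were above background on any array. Of the 5 fibroblast markers measured, Pdgfrb and Dcn were above background on all 4 arrays. The fibroblast list averaged 7.21 and 7.66 in clone 1 and clone 2, against 7.59 and 7.83 in MOCK and WT. Within it Dcn, which encodes the matrix proteoglycan decorin, stood at 8.94 and 11.18 in clone 1 and clone 2, against 12.95 and 13.61 in MOCK and WT. Both clones were below both controls on both scalings, and the difference of -3.22 did not pass (SE 0.63, limma adjusted p = 0.121, from 2.69e-06 to 0.9996 over the alternatives). Col1a2, a collagen I chain gene, was above background in clone 1 alone, at 6.99 in clone 1 and 5.09 in clone 2, against 5.08 and 5.29 in MOCK and WT. Pdgfrb stood at 11.70 and 12.02 in clone 1 and clone 2, against 11.47 and 11.42 in MOCK and WT. Its groups overlapped after quantile normalization. As deposited 3 of the 5 fibroblast markers had a positive difference and 2 a negative one, with a median of 0.42. After quantile normalization 2 were positive and 3 negative, with a median of -0.04. Whether these fibroblast markers have a part in the protease values was not tested.

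Promoter sequence was matched in the RefSeq promoter table (build GRCm38.p6) for 5 of the 9 genes, namely Mmp3, Mmp10, Mmp13, Mmp14 and Plaur. The 120 bases before the annotated transcription start are shown for these genes, because AP-1, the Fos and Jun transcription factor complex, is a textbook activator of several MMP genes. Capitals mark an AP-1 motif, searched as TGAGTCA and TGACTCA, each of which is the reverse complement of the other. All 5 lie on the plus strand, and each is written 5′ to 3′.
Mmp3, chr9:7445702-7445821: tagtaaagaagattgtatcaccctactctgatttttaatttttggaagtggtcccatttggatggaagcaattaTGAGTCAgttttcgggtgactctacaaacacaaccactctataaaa
Mmp10, chr9:7502222-7502341: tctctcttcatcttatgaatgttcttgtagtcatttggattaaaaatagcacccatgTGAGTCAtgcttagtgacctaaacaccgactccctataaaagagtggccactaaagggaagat
Mmp13, chr9:7272394-7272513: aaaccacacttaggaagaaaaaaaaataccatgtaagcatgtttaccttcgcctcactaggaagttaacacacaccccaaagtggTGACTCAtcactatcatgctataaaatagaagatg
Plaur, chr7:24462363-24462482: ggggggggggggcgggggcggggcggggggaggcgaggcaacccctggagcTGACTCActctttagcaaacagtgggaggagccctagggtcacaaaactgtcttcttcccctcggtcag
Mmp14, chr14:54431478-54431597: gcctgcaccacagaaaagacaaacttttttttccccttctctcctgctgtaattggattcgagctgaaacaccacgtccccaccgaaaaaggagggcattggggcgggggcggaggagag

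In the 250 bases before the start, the AP-1 motif was found in 4 of these 5 promoters, against 4.46% of the 32851 promoters in the table. It began 46 bases before the start in Mmp3, 63 in Mmp10, 35 in Mmp13 and 69 in Plaur, and these letters were not in the Mmp14 window. A TATA box motif (TATAAA, both strands) was found in Mmp3, Mmp10 and Mmp13, against 12.4% of all promoters, and a GC box motif (GGGCGG, both strands) in Mmp14 and Plaur, against 32.7%. An Ets motif (AGGAAG, both strands) was found in all but Mmp10, against 29.5%; no match overlapped an AP-1 match. These matches describe sequence only, and whether AP-1 has a part in the values below was not tested.

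The clones did not share 1 pattern across these proteases. Clone 2 had the highest Mmp2, Mmp9, Mmp14 and Plat signals of the 4 arrays and the lowest Mmp3 signal, while clone 1 had the lowest Mmp2 signal and a Mmp3 signal like that of WT. Plat was the member with both clones furthest above both controls. In RNA from whole cultures, a change in the share of cells that make a transcript and a change in RNA per cell cannot be told apart. Of the 9 genes, 0 passed the limma test of knockout minus control over all 22206 probe sets (3 had an unadjusted p under 0.05), where 0.0405% of all probe sets were called. Adjusted p ran from 0.121 to 0.993, and from 0.289 to 0.998 after quantile normalization, where 0 members were called, beside 0.0045% of all probe sets, and 2 had an unadjusted p under 0.05. Both clones lay above both controls for 3 members and below both for 0, beside 27.8% and 11.7% of all probe sets, so the share of members with groups that do not overlap was near the background. After quantile normalization these were 2 and 0 members, beside 19.2% and 21.3%. The median difference of the 9 was 0.43, or 0.08 after quantile normalization.

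**Figure D1:**
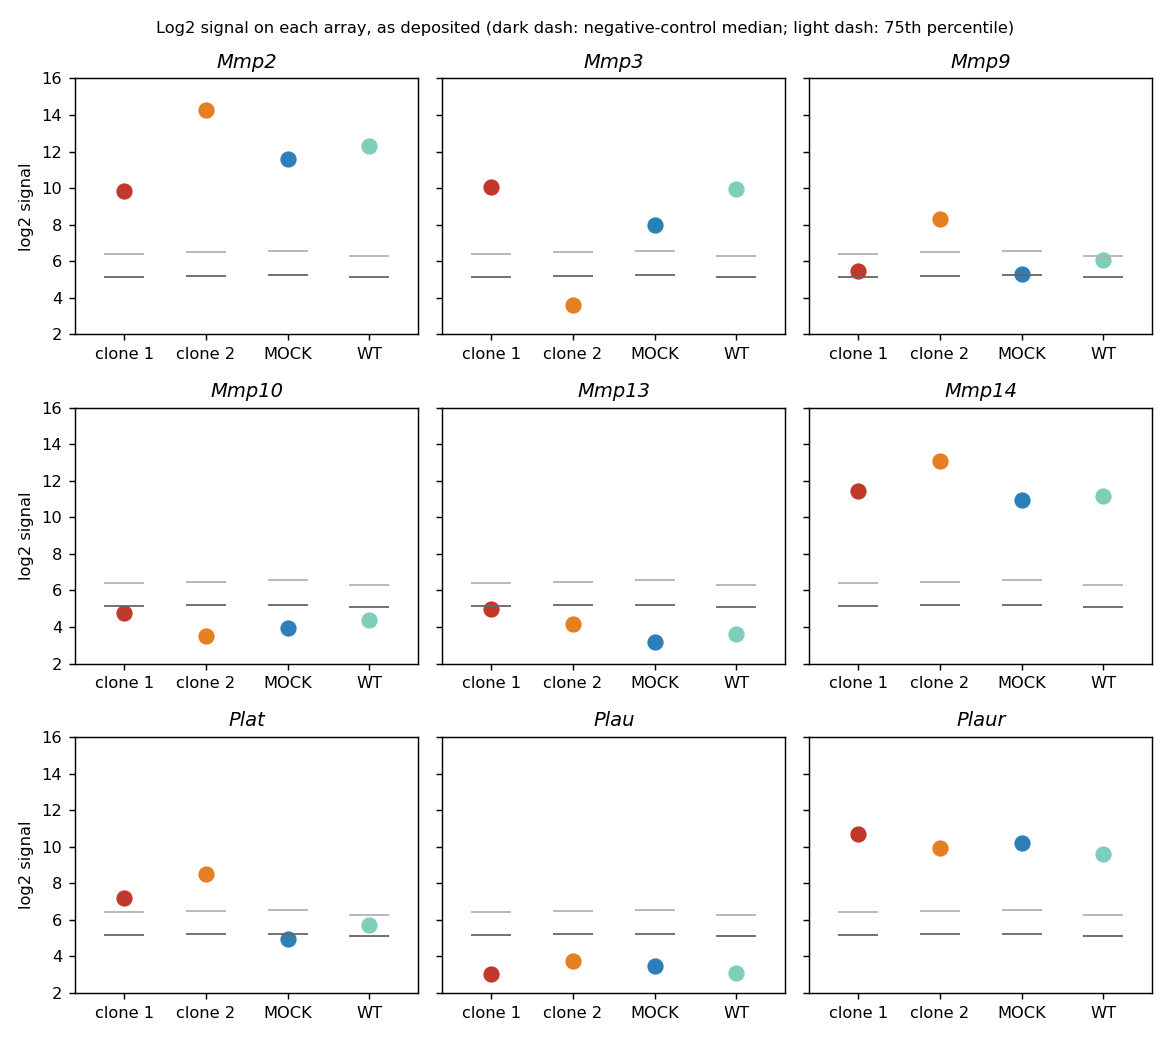
Log2 signal of each of the 9 genes (vertical axis, as deposited) on the clone 1, clone 2, MOCK and WT arrays, 1 point per array, with the negative-control median as a dark dash and their 75th percentile as a light dash. Mmp2, Mmp14 and Plaur lie above the dashes on all 4 arrays, Mmp3 drops to 3.59 in clone 2, and Mmp10, Mmp13 and Plau lie below the dark dash throughout.

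Mmp2 encodes gelatinase A, which cleaves denatured collagen and type IV collagen of basement membranes. Its signal was 9.86 in clone 1 and 14.29 in clone 2, against 11.61 in MOCK and 12.28 in WT. Clone 1 was below both controls and clone 2 above both, so the knockout mean of 12.07 ± 3.13 and the control mean of 11.94 ± 0.47 (SD, n = 2 each) hid a spread of 4.43 log2 units within the knockout group. The knockout minus control difference was 0.13 (SE 1.05, limma adjusted p = 0.983). After quantile normalization it was -0.33, a change of direction well inside its error. The clones lay 21.5-fold apart, and Mmp2 ranked 26 of 22206 probe sets by the size of the difference between them.

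Mmp14 encodes MT1-MMP, a membrane-anchored collagenase that activates proMmp2 at the cell surface with Timp2 as an adaptor. It stood at 11.44 in clone 1 and 13.07 in clone 2, against 10.94 in MOCK and 11.19 in WT. Both clones were above both controls as deposited, clone 1 by little. The knockout mean was 12.26 ± 1.15 and the control mean 11.06 ± 0.18 (SD, n = 2 each), a difference of 1.19 (SE 0.52, limma adjusted p = 0.545). After quantile normalization clone 1 at 11.30 lay between MOCK at 10.88 and WT at 11.73, and only clone 2 at 12.79 was above both.

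Mmp9 encodes gelatinase B, the gelatinase that neutrophils and macrophages also make in quantity. Its signal was 5.47 in clone 1 and 8.33 in clone 2, against 5.31 in MOCK and 6.05 in WT. Clone 2 was the single array above background, at least 3.74-fold above the controls and at least 3.76-fold above clone 1. The knockout minus control difference was 1.22 (SE 0.74, limma adjusted p = 0.686). None of the 5 leukocyte markers measured was above background on any array. Ptprc, which marks all leukocytes, stood under the negative-control median on all 4 arrays. Lyz2, from the same list, stood at 5.04 and 5.92 in clone 1 and clone 2, against 5.81 and 4.87 in MOCK and WT. Whether leukocytes have a part in the Mmp9 signal was not tested.

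Mmp3 encodes stromelysin 1, which cleaves many matrix proteins and activates other proMMPs. It stood at 10.03 in clone 1 and 3.59 in clone 2, against 8.0 in MOCK and 9.97 in WT. Clone 2 was below the negative-control median, while the other 3 arrays were above background. Mmp3 was at least 5.64-fold lower in clone 2 than in the controls, and at least 11.7-fold higher in clone 1 than in clone 2. MOCK and WT differed as well, by 1.97 with MOCK lower, which ranked 35 among the differences between the controls. The knockout mean was 6.81 ± 4.55 and the control mean 8.99 ± 1.39 (SD, n = 2 each), and the difference of -2.17 did not pass (SE 1.52, limma adjusted p = 0.726).

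Mmp10, which encodes stromelysin 2, and Mmp13, which encodes the main interstitial collagenase of the mouse, were under the negative-control median on all 4 arrays. Mmp10 signals ran from 3.52 to 4.79 over the 4 arrays and Mmp13 signals from 3.20 to 5.01. For Mmp13 the clones, at 5.01 and 4.15, were above MOCK at 3.20 and WT at 3.63 (limma adjusted p = 0.468), but at this level no fold is given.

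Mmp3, Mmp10 and Mmp13 belong to 1 cluster of Mmp genes on chromosome 9. Of the 9 cluster genes measured, Mmp3 was the single one above background on any array, and the other 8 were not above background on all 4. The 5 measured genes on each side of the cluster, taken in RefSeq order, differed between the clones by -1.46 to 1.01, clone 1 minus clone 2, against at least 3.54 for Mmp3. Dcun1d5, the nearest on one side, stood at 11.60 and 11.31 in clone 1 and clone 2, against 11.43 and 10.68 in MOCK and WT. Tmem123, the nearest on the other, stood at 12.41 and 12.15 in clone 1 and clone 2, against 11.98 and 11.31 in MOCK and WT. Cfap300 was the flanking gene that was lowest in clone 2 relative to clone 1, at 8.11 and 7.10 in clone 1 and clone 2, against 8.23 and 7.40 in MOCK and WT.

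**Figure D2:**
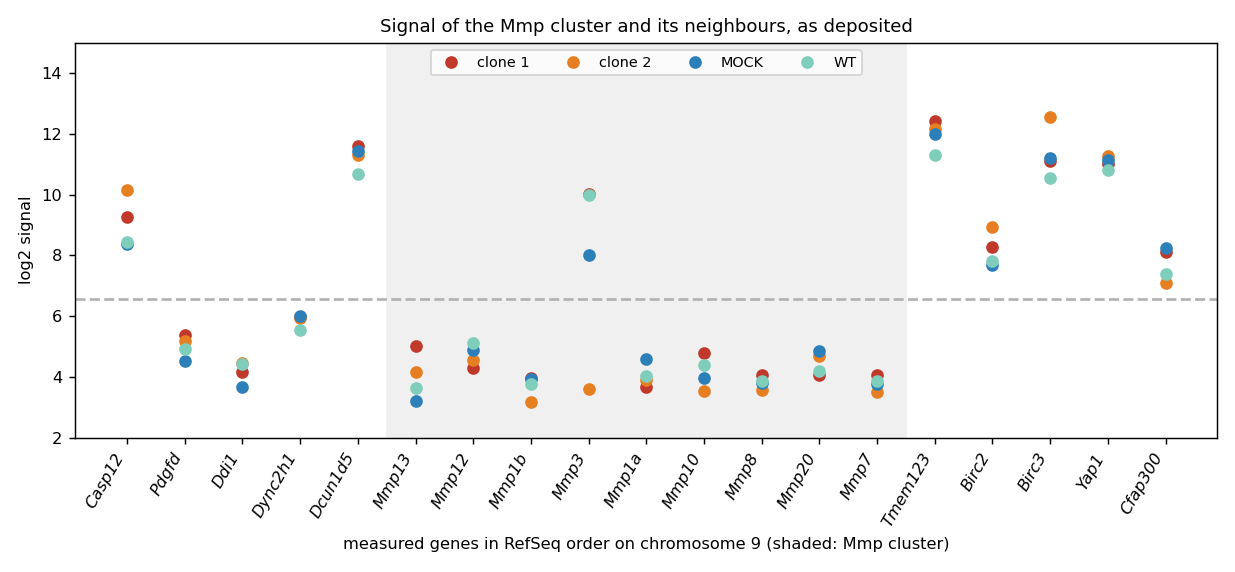
Log2 signal (vertical axis, as deposited) of the 9 measured genes of the Mmp cluster on chromosome 9 (shaded) and of 5 measured genes on each side, in RefSeq gene order, 1 point per array; the dashed line is the highest 75th percentile of the negative controls, 6.56. Within the cluster only Mmp3 rises above the line, on the clone 1, MOCK and WT arrays.

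Plat encodes tissue plasminogen activator. Its signal was 7.18 in clone 1 and 8.51 in clone 2, against 4.96 in MOCK and 5.69 in WT. Both clones were above background and neither control was, and the groups did not overlap on either scaling. The knockout mean was 7.85 ± 0.94 and the control mean 5.33 ± 0.52 (SD, n = 2 each), which puts Plat at least 2.68-fold higher in the knockout. Against the same controls the bound was 1.69-fold for clone 1 alone and 4.25-fold for clone 2 alone. The difference of 2.52 (SE 0.50) did not pass the test (limma adjusted p = 0.121, and 0.289 after quantile normalization with a difference of 2.24). It passed when the 25% of probe sets with the lowest mean signal were left out (limma adjusted p = 0.0179), and over all alternatives its adjusted p ran from 3.9e-05 to 0.999.

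Plau, which encodes urokinase, was under the negative-control median on all 4 arrays, with signals from 3.06 to 3.72. Plaur, its receptor, was above the 95th percentile of the negative controls on every array. It stood at 10.69 in clone 1 and 9.95 in clone 2, against 10.21 in MOCK and 9.58 in WT, and the groups overlapped. The knockout minus control difference was 0.43 (SE 0.43, limma adjusted p = 0.811), and 0.00 after quantile normalization.

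Among the members the clones differed more often than the controls did. The members were chosen with earlier results of these data known, so their counts beside all probe sets are a description only. The clones lay at least 1 log2 unit apart for 6 of the 9 genes, beside 12.7% of all probe sets, and MOCK and WT for 1 of the 9, beside 10.1%. After quantile normalization these counts were 6, beside 11.3%, and 2, beside 4.52%. The median size of the difference between the clones was 1.33 over the 9 genes and 0.41 over all probe sets. Between MOCK and WT it was 0.63 and 0.40. After quantile normalization the medians were 1.37 and 0.39 between the clones, and 0.84 and 0.29 between MOCK and WT. One of the 6 was Mmp10, whose signals were not above background. The clones lay on opposite sides of both controls for 4 members, Mmp2, Mmp3, Mmp10 and Plau, beside 15.3% of all probe sets. After quantile normalization these were Mmp2, Mmp10, Plau and Plaur, again 4, beside 18.4%. Mmp10 and Plau were not above background. With 1 array per clone the difference between the clones has no test.

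**Figure D3:**
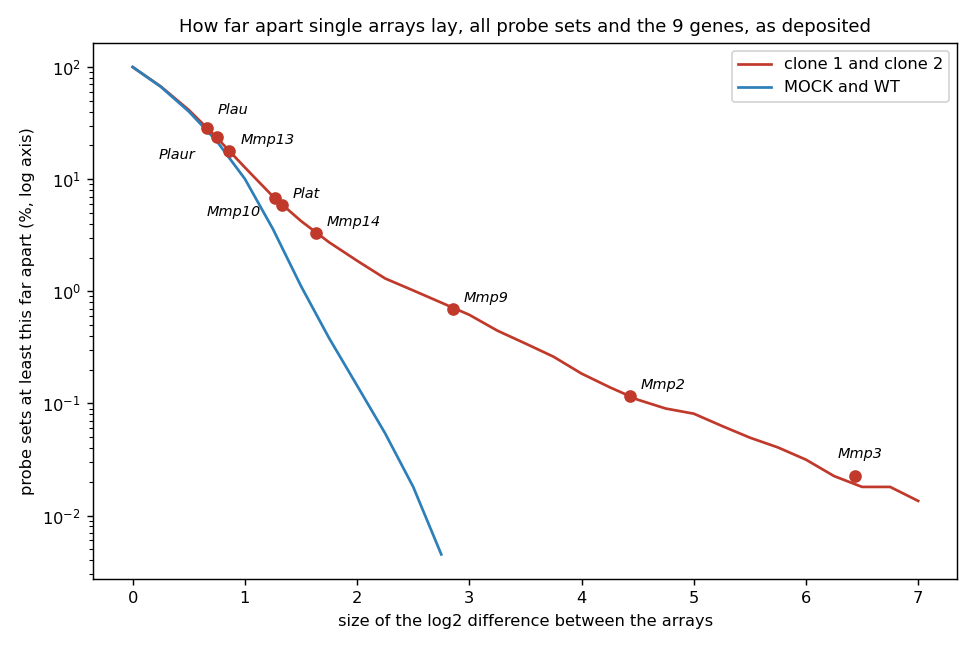
Share of all 22206 probe sets (percent, log axis) that lay at least a given log2 difference apart, between clone 1 and clone 2 and between MOCK and WT, as deposited, with the 9 genes placed at their own difference between the clones. Points stand at measured differences, and Mmp2 lies at 4.43. Mmp3 in clone 2 and Mmp9 in clone 1 were not above background, so their points stand for differences of at least 3.54 and 1.91 only.

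Each clone was also set against both controls in a limma fit of 3 arrays, which assumes that the lone clone array varies like the controls. The 9 genes were chosen with earlier results of these data known, so the counts called are no test of the list. For clone 1, 0 of the 9 genes were called, beside 0.671% of all probe sets, and 3 had an unadjusted p under 0.05. Its Mmp2 difference of -2.09 had a limma adjusted p of 0.0666, and after quantile normalization Mmp2 was called lower, with a difference of -2.48 (limma adjusted p = 0.0245, beside 1.13% of all probe sets). For clone 2, 5 of the 9 were called, beside 2.38%. Mmp2 was 5.08-fold higher in clone 2 (SE 0.51 log2 units, limma adjusted p = 0.0105). Mmp14 was 4.03-fold higher (SE 0.49, limma adjusted p = 0.0277). The measured differences were 2.65 log2 units for Mmp9, 3.19 for Plat and -5.39 for Mmp3. Calls for these genes rest on measured values, of which the lower side was not above background. The bounds were not tested, and they put Mmp9 at least 3.74-fold and Plat at least 4.25-fold higher, and Mmp3 at least 5.64-fold lower. After quantile normalization Mmp3, Mmp9 and Plat were called in clone 2, beside 3.62% of all probe sets, and Mmp2 and Mmp14 were not (limma adjusted p = 0.0538 and 0.0666). The fits of the clones share MOCK and WT, and a call in 1 clone alone is no test that the clones differ.

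**Figure D4:**
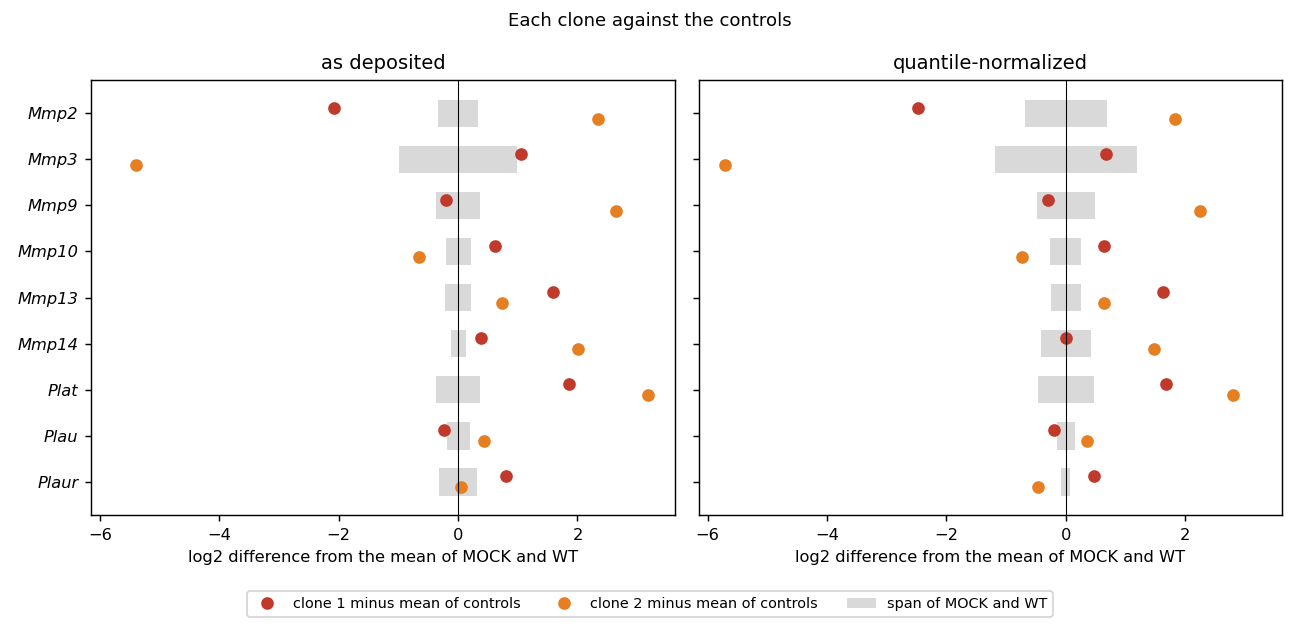
Log2 difference of clone 1 and of clone 2 from the mean of MOCK and WT for the 9 genes, as deposited (left) and after quantile normalization (right); grey bars span MOCK and WT. Clone 2 lies at least 1 log2 unit from the control mean for Mmp2, Mmp3, Mmp9, Mmp14 and Plat in both panels, and among these 5 clone 1 does so in both panels for Mmp2 and Plat.

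The partners of these enzymes were described over 6 further lists with 66 measured genes, chosen for their place in the pathway. None was called in the limma test, a count of 0 with 9 at an unadjusted p under 0.05, beside 0.0405% of all probe sets. Both clones lay above both controls for 17 of the 66 (25.8%), beside 27.8% of all probe sets, and below both for 10 (15.2%), beside 11.7%, and the median difference was 0.06, beside 0.18 over all probe sets. After quantile normalization the counts were 12, beside 19.2%, and 16, beside 21.3%. These shares were near the background.

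Among the inhibitors, Timp1, a broad MMP inhibitor, stood at 12.49 in clone 1 and 13.36 in clone 2, against 11.68 in MOCK and 11.19 in WT (limma adjusted p = 0.34). Both clones were above both controls on both scalings. Timp2 stood at 15.95 and 15.85 in clone 1 and clone 2, against 15.75 and 14.84 in MOCK and WT, and the groups overlapped after quantile normalization. Timp3 and Timp4 were under the negative-control median on all 4 arrays. Reck, a membrane-anchored MMP inhibitor, stood at 7.0 and 7.25 in clone 1 and clone 2, against 6.71 and 5.78 in MOCK and WT (limma adjusted p = 0.597). Its WT signal was not above background. Of the 6 inhibitor genes measured, 0 were called, and Timp3, Timp4 and A2m were not above background on any array. All 6 had a positive difference as deposited, where the median over all probe sets was 0.18. After quantile normalization, where that median was -0.02, 5 had a positive difference. The share of all probe sets with a positive difference was not counted.

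Of the 15 other MMP genes measured, 12 were not above background on any array. Mmp16, which encodes the membrane-type enzyme MT3-MMP and was chosen after its values were seen, stood at 9.51 in clone 1 and 5.27 in clone 2, against 8.95 in MOCK and 8.24 in WT. Like Mmp3, it was above background on every array but clone 2. In the plasminogen system 10 genes were measured, 0 were called, and Plg, which encodes plasminogen itself, was under the negative-control median on all 4 arrays. Lrp1, a scavenger receptor that takes up protease and inhibitor complexes, stood at 10.08 and 10.30 in clone 1 and clone 2, against 11.0 and 10.39 in MOCK and WT (limma adjusted p = 0.756). Serpinb2, a serpin that inhibits urokinase, was under the negative-control median on every array.

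**Figure D5:**
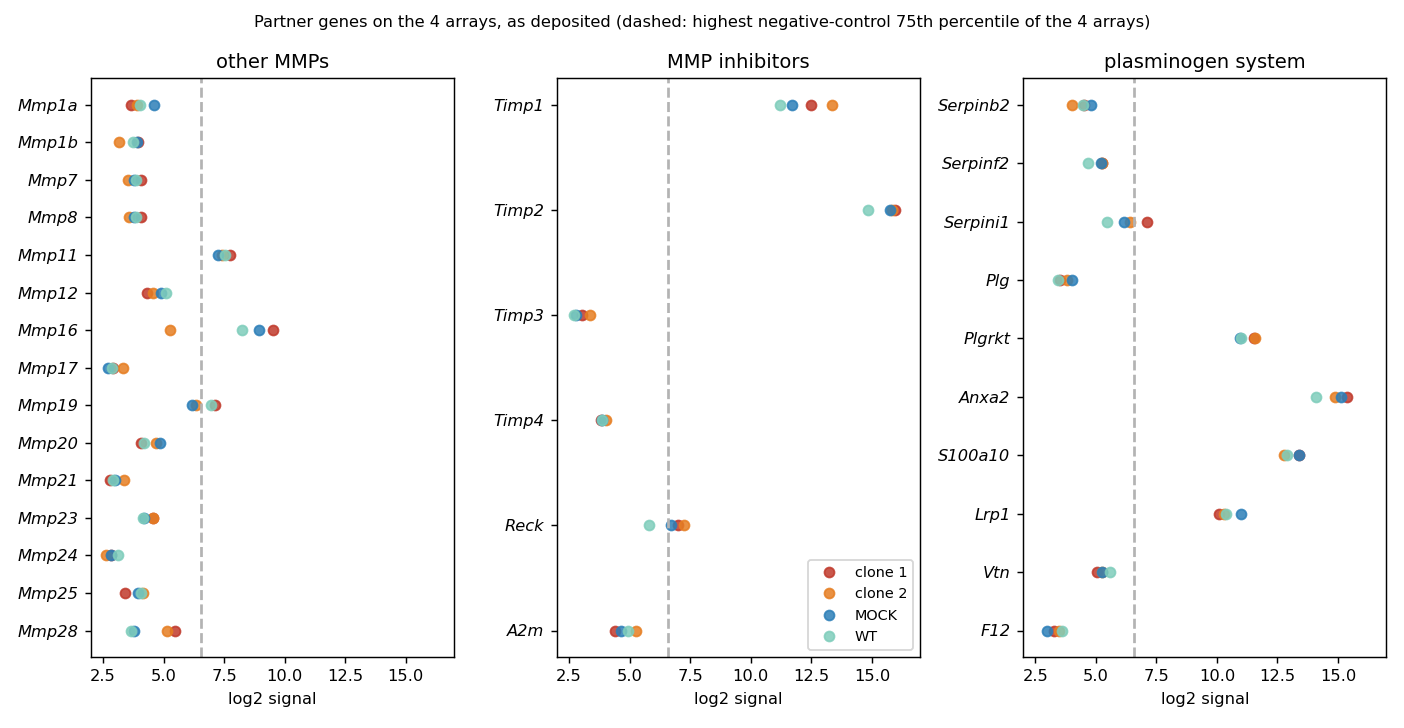
Log2 signal (horizontal axis, as deposited) of the measured genes of the lists of other MMPs, MMP inhibitors and the plasminogen system, 1 point per array; the dashed line is the highest 75th percentile of the negative controls, 6.56. Clone 2 falls to 5.27 for Mmp16, and both clones lie above both controls for Timp1.

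Of 10 membrane serine protease genes and their partners, 8 were not above background on any array, among them St14, which encodes matriptase. Htra1, a secreted serine protease, stood at 11.14 and 10.99 in clone 1 and clone 2, against 11.55 and 11.43 in MOCK and WT (limma adjusted p = 0.779). In the list of 12 ADAM and ADAMTS proteases, Adamts1, which cleaves proteoglycans, stood at 11.59 and 11.08 in clone 1 and clone 2, against 10.21 and 9.79 in MOCK and WT (limma adjusted p = 0.353). Adam9 stood at 13.54 and 13.38 in clone 1 and clone 2, against 12.97 and 12.11 in MOCK and WT (limma adjusted p = 0.566).

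All 13 AP-1 and Ets factor genes listed were above background on all 4 arrays, and 0 were called. Jund stood at 10.71 in clone 1 and 11.17 in clone 2, against 9.05 in MOCK and 9.99 in WT (limma adjusted p = 0.365). Fosb stood at 8.33 and 8.15 in clone 1 and clone 2, against 8.96 and 9.88 in MOCK and WT (limma adjusted p = 0.453). Elk3, an Ets family factor, stood at 10.37 and 10.66 in clone 1 and clone 2, against 11.35 and 10.95 in MOCK and WT (limma adjusted p = 0.683). The clones lay at least 1 log2 unit apart for 5 of the 13, beside 12.7% of all probe sets. These 5, named after their values were seen, were Etv5, Etv1 and Etv4, higher in clone 1 by 1.84, 1.29 and 1.01, and Junb and Ets2, with differences of -1.25 and -1.15, clone 1 minus clone 2. After quantile normalization all of these but Ets2 remained at least 1 unit apart, beside 11.3% of all probe sets. MOCK and WT were also at least 1 unit apart for Fos, Fosl1, Ets1 and Junb, beside 10.1% of all probe sets. Their differences, MOCK minus WT, were -2.05, 1.36, 1.05 and -1.01. After quantile normalization the controls were that far apart for Fos (-2.52), Junb (-1.55), Jund (-1.37) and Fosb (-1.32), beside 4.52%.

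For the 3 members with the widest range over the 4 arrays, the genes with the most similar quantile-normalized profile were found by the root-mean-square distance between centred values. This distance rests on 4 arrays and is a description. Nearest to Mmp3 was Trp53i11 (distance 0.64), at 10.25 and 4.20 in clone 1 and clone 2, against 8.05 and 8.90 in MOCK and WT, followed by Cd99 (1.12) and Gng2 (1.16). Nearest to Mmp2 were Itgbl1 (0.30), Cp (0.30) and Lif (0.33). Lif stood at 7.54 in clone 1 and 11.84 in clone 2, against 9.29 in MOCK and 9.39 in WT. Nearest to Plat were Ajuba (0.13) and the zinc finger genes Zfp985 (0.21) and Zfp984 (0.23). Ajuba stood at 10.22 and 11.75 in clone 1 and clone 2, against 8.22 and 8.80 in MOCK and WT. Among the members themselves, the nearest to Mmp3 was Mmp10 (2.26), to Mmp2 was Mmp9 (0.91) and to Plat was Mmp14 (0.76). Not above background were Mmp3, Trp53i11 and Cd99 (4.67) in clone 2, Itgbl1 in clone 1 and MOCK, and Zfp984 in MOCK. The same held for Plat in both controls, for Mmp9 on every array but clone 2 and for Mmp10 on all 4 arrays. Distances that involve these genes rest in part on such signals.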

How the data were processed

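Total RNA of 4 samples was amplified, copied into cDNA and labelled with biotin, per the labels' protocols. The deposited values are normalized log2 signals that the authors made with the Transcriptome Analysis Console, per the submitters' processing notes. For its version, normalization and build, nothing is given in the sources used here. The log2 scale was read from the range of the values. Of 28846 features, 6640 array controls were dropped, and the remaining 22206 probe sets entered limma 3.58.1 under R 4.3.3 (lmFit, eBayes, Benjamini-Hochberg, adjusted p under 0.05). The fit was also run on simulated data, whose changes were all larger than the knockout minus control difference of any member. That run does not show how often changes of the members' size would be called. Titles gave the groups, because 1 cell label names the knockout for all 4 samples. The precision is limited by the number of arrays, 2 per group. Gene names came from the platform annotation and the RefSeq table of GRCm38.p6. Alternatives were quantile normalization, median centring, filters on dim signal, another variance prior and leaving out each array.

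All 9 members were named by rule. From each list the rule took any called gene, and otherwise up to 3 with both clones on the same side of both controls on both scalings and a group mean above the highest 75th percentile of the negative controls. The TIMP genes, Serpinb2 and Reck were always taken. Members and lists were chosen with earlier results of these data known. The 10 flanking genes of the Mmp cluster were added after seeing the data.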

Additional observations from a re-analysis of the deposited data

Results flagged for a closer look

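Mmp2 and Mmp3 lay on opposite sides of both controls in the clones, and neither difference was tested, because each clone has 1 array. For Mmp2 the difference clone 1 minus clone 2 was -4.43 log2 units as deposited and -4.30 after quantile normalization, with clone 1 below both controls and clone 2 above both on either scaling. For Mmp3 the measured difference was 6.44 as deposited and 6.38 after quantile normalization, but clone 2 was not above background, which leaves a difference of at least 3.54. Clone 1 was above WT by little as deposited, at 10.03 against 9.97, and below it after quantile normalization, at 9.91 against 10.42, while clone 2 was below both controls on either scaling.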

How the results depend on the processing

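No paired analysis was run, because the labels give no pairing between the clones and the controls. The count of probe sets called, 9 as deposited, was 1 after quantile normalization, 196 with probe sets under the median mean signal left out and 125 with those under its 25th percentile left out, 340 with a trended and robust prior, 0 to 529 with 1 array left out and, with quantile normalization as well, 0 without WT, 1 without MOCK, 250 without clone 2 and 804 without clone 1. The count of members called, 0 as deposited, was 2 (Mmp3 and Plat) with the filter at the median, 1 (Plat) with the filter at the 25th percentile and 1 (Plat) with the trended and robust prior, 0 to 5 with 1 array left out, and 0 to 3 with quantile normalization as well. With the filter at the median limma gave all probe sets 1 shared variance, with a SE of 0.55 for Mmp3 in place of 1.52. The 5 called were without clone 1. The count over the 66 partner genes, 0 as deposited, was 2 with the trended and robust prior, 0 to 2 with 1 array left out and 0 to 5 with quantile normalization as well, and the number below both controls was 10 as deposited and 16 after quantile normalization. The probe sets at least 1 log2 unit apart between MOCK and WT numbered 2232, and 1004 after quantile normalization.

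The Mmp2 difference, 0.13 as deposited, was -0.33 after quantile normalization and -0.01 (-0.0079) after median centring, and that of Plau, 0.10 as deposited, was -0.037 after centring. With 1 array left out as deposited, the differences ran from -2.09 to 2.34 for Mmp2, -5.39 to 1.05 for Mmp3, -0.21 to 2.65 for Mmp9, -0.65 to 0.61 for Mmp10, 1.85 to 3.19 for Plat and -0.23 to 0.43 for Plau, and with quantile normalization as well from -2.48 to 1.80 for Mmp2 (-1.004 without MOCK), -5.66 to 0.67 for Mmp3, -0.29 to 2.22 for Mmp9, -0.73 to 0.63 for Mmp10 (0.22 without WT), -0.0037 to 1.47 for Mmp14, -0.20 to 0.36 for Plau (-0.070 without WT) and -0.47 to 0.48 for Plaur (-0.074 without WT). Mmp13 and Plat kept a positive difference in all of the alternatives in which they were tested. Mmp10, Mmp13 and Plau, at or under the level of the negative controls, allow no statement about a change. The cause of the changes under the other settings was not tested.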
